A study of Caenorhabditis elegans with 10 samples.

Results

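The enzymes of glycolysis, gluconeogenesis, the glyoxylate cycle and the tricarboxylic acid (TCA) cycle were followed as Caenorhabditis elegans larvae left first-stage (L1) arrest. The set held 48 genes chosen by their gene IDs: 19 of glycolysis, 7 of gluconeogenesis, trehalose synthesis and the glyoxylate cycle, and 22 of pyruvate entry and the TCA cycle. Of these, 42 had read counts of their own among 13374 counted gene units, and 5 were read from the authors' table of expression values, which lists 44968 genes. W05G3.6 was found in neither table, is paired with no gene name and is not analysed here.

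All animals were wild-type N2 larvae of the L1 stage. Polyadenylated RNA of whole animals was sequenced in 10 libraries. Starved larvae came from bleached embryos held 24 h at 20 °C in medium with no food, which per the labels left them about 12 h in arrest (3 libraries). The other larvae had the same starvation and were then given E. coli HB101 at 25 mg/mL for 1 h (2 libraries), 3 h (2 libraries) or 6 h (3 libraries). Per the labels' protocol food went to what was left of a starved culture, and no label says which libraries share a culture. The comparisons ask which enzyme transcripts differ once food is present, how early, and which of several gene copies carries the difference. Unfed larvae of the later times were not analysed here, so food and elapsed time cannot be told apart.

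Glycolysis breaks glucose down to pyruvate, and gluconeogenesis runs most of the same steps in reverse, with its own enzymes at the steps that glycolysis cannot turn round. The glyoxylate cycle, which animals other than nematodes generally lack, skips the carbon-losing steps of the TCA cycle and so lets carbon from stored fat reach sugars such as trehalose, a storage sugar that starved worms hold. Several enzymes are encoded by more than a single gene, often with a cytosolic and a mitochondrial copy.

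Summed counts ran from 19163997 to 38607167 per library. The heterochronic L1 genes lin-14 and lin-28 together held 194.5 to 288.8 CPM over all libraries, and the 4 of 6 adult yolk protein genes with counts summed to 1.15 to 3.06 CPM. CPM are counts per 1e6 counts, with library sizes scaled by TMM (trimmed mean of M values) factors. The summed level of 2 of 3 body wall muscle markers with counts, myo-3 and unc-15, was 2320 to 3354 CPM in starved larvae, 1445 to 1797 CPM at 1 h, 1216 to 1629 CPM at 3 h and 1275 to 1944 CPM at 6 h, and no fed library reached the starved range. For the 4 of 4 intestinal markers the range was 1337 to 1634 CPM in starved larvae, 1180 to 1269 CPM at 1 h, 1598 to 1679 CPM at 3 h and 1501 to 1994 CPM at 6 h. Within it act-5 was called higher (log2 0.997, 2.01 and 2.09 at 1 h, 3 h and 6 h), while ges-1 (-1.64, -3.27 and -1.71) and ifb-2 (-0.65, -0.70 and -0.46) were called lower. The marker elt-2 was called higher at 1 h alone (0.56, 0.24 and 0.07). For 3 of 4 neuronal markers with counts it was 184 to 275.6 CPM in starved larvae, 179 to 228 CPM at 1 h, 184 to 205 CPM at 3 h and 156 to 168 CPM at 6 h. For 2 of 2 pharyngeal muscle markers it was 1332 to 3236 CPM in starved larvae, 1343 to 1903 CPM at 1 h, 1153 to 1346 CPM at 3 h and 1104 to 2018 CPM at 6 h. No list was at 0 in any library, and their part in the enzyme results was not tested. In RNA of whole animals, fewer cells of a type and less RNA per cell cannot be told apart.

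Of the 42 counted genes, icl-1, aldo-2 and aco-2 were among those that fell on feeding and sucg-1 and idh-1 among those that rose. Each fed time was tested against starved larvae with edgeR's quasi-likelihood test, and a gene was called at a Benjamini-Hochberg adjusted p under 0.05 over the 13226 units that passed a filter on low counts, all 42 enzymes among them. A gene's count is the sum over its exonic bins, the stretches into which the authors cut each gene model, so a read that spans bins counts in each. At 1 h against starved 17 of 42 were called, 4 higher and 13 lower, where 39% of all units were called, 20.4% higher and 18.7% lower. At 3 h 19 were called, 4 higher and 15 lower, against 41.6% of all units, 21.9% higher and 19.7% lower. At 6 h 24 were called, 11 higher and 13 lower, against 52% of all units, 27% higher and 25% lower. The share of enzymes called (40.5% at 1 h, 45.2% at 3 h and 57.1% at 6 h) thus lay near that of all units, while more of the calls at 1 h and 3 h were falls than rises. Their median log2 change was -0.30 at 1 h, -0.25 at 3 h and -0.02 at 6 h, beside -0.003, -0.02 and -0.04 for all units. Without replicate 1 of the 1 h larvae 11 of 42 were called at 1 h, 3 higher and 8 lower.

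The joint test over the 4 groups called 24 of the 42 enzymes and 55.8% of all units. Of the 42, 14 were called in the same direction at all 3 fed times, beside 26.6% of all units. Of these, hxk-3, aldo-2, gpd-3, pyk-2, pck-2, tps-1, icl-1, pyc-1, aco-2 and idha-1 were lower, and 4 (aco-1, idh-1, sucg-1 and suca-1) were higher, beside 14.4% of all units higher at all 3. The 3 comparisons share their starved libraries. A change of 2-fold or more was called at some fed time for 15 enzymes, beside 39.3% of all units, and one of 4-fold or more for 4 (icl-1, tps-1, aldo-2 and sucg-1), beside 13.7%. No call was made at any fed time for 14 enzymes, beside 37.1% of all units.

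**Figure D1:**
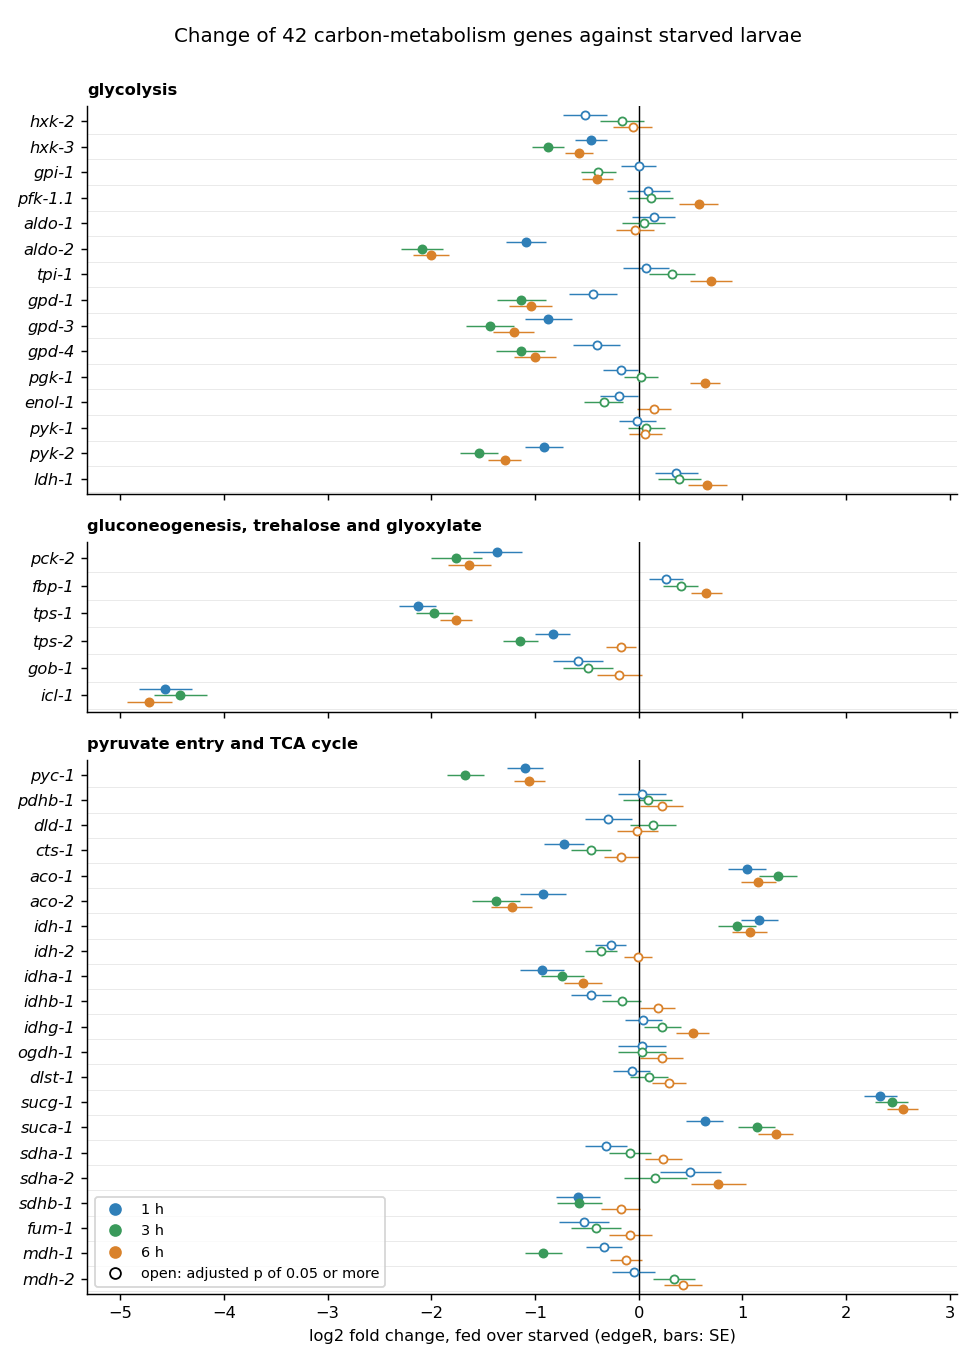
Log2 fold change of the 42 counted enzyme genes (rows, by pathway) at 1 h, 3 h and 6 h over starved larvae on the horizontal axis, with SE bars; filled points have an adjusted p under 0.05. The isocitrate lyase gene icl-1 stands furthest to the left, at -4.57, -4.42 and -4.72, and sucg-1 furthest to the right, at 2.33, 2.44 and 2.55.

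The 42 genes took 3.05% to 3.33% of all counts in starved libraries, 1.96% to 2.14% at 1 h, 1.43% to 1.48% at 3 h and 1.45% to 1.74% at 6 h. The 15 glycolysis genes held 1.196% to 1.252% of counts in starved larvae, 0.824% to 0.851% at 1 h, 0.478% to 0.5% at 3 h and 0.496% to 0.585% at 6 h. The 6 genes of gluconeogenesis, trehalose synthesis and the glyoxylate cycle held 0.731% to 0.965% in starved larvae, 0.162% to 0.192% at 1 h, 0.118% to 0.123% at 3 h and 0.12% to 0.13% at 6 h. In both groups of genes no fed library reached the starved range. Much of these sums lay in a few genes. aldo-2 and gpd-3 held means of 0.429% and 0.456% in starved larvae and 0.219% and 0.272% at 1 h. icl-1 and pck-2 held 0.508% and 0.2615% in starved larvae and 0.0233% and 0.111% at 1 h. The sums thus do not show that each group fell as a whole. The 21 genes of pyruvate entry and the TCA cycle kept 1.06% to 1.16% in starved larvae, 0.973% to 1.101% at 1 h, 0.83% to 0.864% at 3 h and 0.833% to 1.03% at 6 h, and their 1 h range overlapped the starved one. These shares depend on how long each gene is and on everything else in the library.

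**Figure D2:**
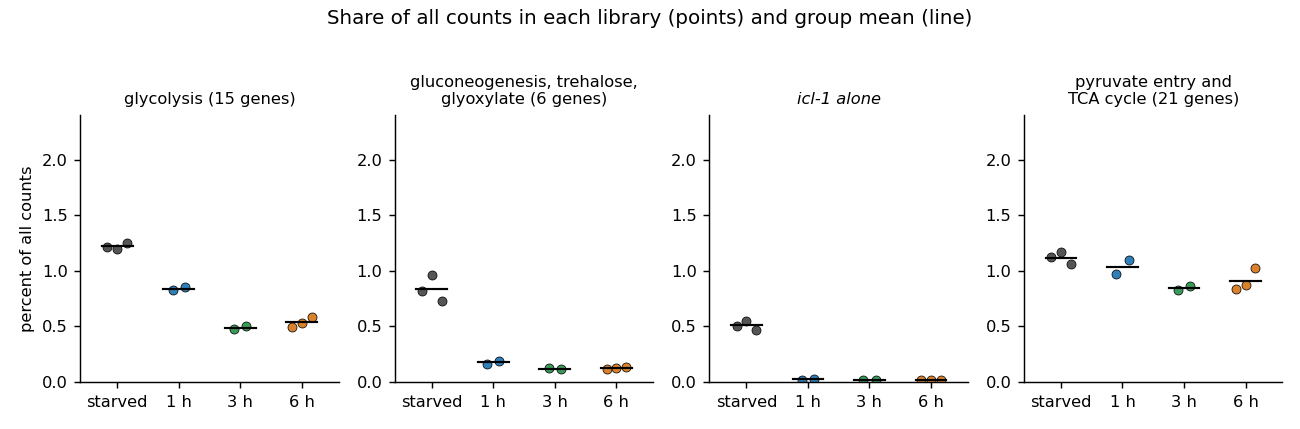
Percent of all counts taken by 15 glycolysis genes, by 6 genes of gluconeogenesis, trehalose synthesis and the glyoxylate cycle, by icl-1 alone, and by 21 genes of pyruvate entry and the TCA cycle, in each library (points) with group means (lines), for starved larvae and 1 h, 3 h and 6 h of feeding. The gene icl-1 took a mean of 0.508% of counts in starved larvae and 0.0233% or less at the fed times.

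The enzymes that make sugar from fat and pyruvate held the set's largest fall. icl-1 (C05E4.9, chromosome V, 724209 to 728105 in the WS210 build) encodes the glyoxylate cycle's isocitrate lyase joined to its malate synthase. It stood at 4339, 5167 and 4483 CPM in starved larvae, 175 and 218 CPM at 1 h, 222 and 212 CPM at 3 h, and 151, 165 and 215 CPM at 6 h. Every starved library was far above every fed one, and the fed groups overlapped. The log2 change ± SE was -4.57 ± 0.26 at 1 h, -4.42 ± 0.26 at 3 h and -4.72 ± 0.22 at 6 h, a fall of 23.7-fold at 1 h, with adjusted p of 1.45e-08, 1.75e-08 and 1.20e-09. By counts per gene, not scaled by length, it ranked 9 to 20 among all 13374 units in starved libraries, 631 to 762 at 1 h, 644 to 683 at 3 h and 722 to 984 at 6 h.

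pck-2 (R11A5.4) is a gene for phosphoenolpyruvate carboxykinase, which turns oxaloacetate into phosphoenolpyruvate early in gluconeogenesis. Of the genes for this enzyme, pck-2 alone was counted in the set. It had 2055, 3197 and 1957 CPM in starved larvae, 854 and 1013 CPM at 1 h, 709 and 712 CPM at 3 h, and 693, 828 and 801 CPM at 6 h. Starved replicate 2 was the highest, and every fed library was below every starved one. The gene fell by all 3 tests, with log2 values of -1.36 ± 0.24 at 1 h, -1.76 ± 0.24 at 3 h and -1.63 ± 0.21 at 6 h (adjusted p 0.000394, 4.47e-05 and 1.54e-05). Of its 30 bins 4 overlap a unit on the other strand, and reads of the strands may be mixed there. fbp-1 (K07A3.1), the gene of fructose-1,6-bisphosphatase, which removes a phosphate on the way to glucose, was called lower at no time. It stood at 147, 181 and 166 CPM in starved larvae, 194 and 201 CPM at 1 h, 195 and 240.5 CPM at 3 h, and 266, 269 and 241 CPM at 6 h. All fed libraries lay above all starved ones, but the rise was called at 6 h alone (0.65 ± 0.15, adjusted p = 0.00219). At 1 h and 3 h the log2 values were 0.26 ± 0.17 and 0.40 ± 0.17 with adjusted p of 0.231 and 0.064. The call at 6 h was lost when libraries were scaled by their totals (0.32, adjusted p = 0.0752).

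The genes of trehalose synthesis differed in their course. tps-1 (ZK54.2, chromosome X, 17467035 to 17474449) and tps-2 (F19H8.1) encode trehalose-6-phosphate synthases, and gob-1 (H13N06.3) the phosphatase that completes the sugar. tps-1 measured 329, 309.8 and 257 CPM in starved larvae, 69.3 and 66.8 CPM at 1 h, 76.0 and 76.2 CPM at 3 h, and 77.3, 96.2 and 90.5 CPM at 6 h. All fed libraries were below all starved ones, and log2 values of -2.13 ± 0.18 at 1 h, -1.97 ± 0.18 at 3 h and -1.76 ± 0.15 at 6 h gave adjusted p of 5.26e-07, 8.83e-07 and 3.73e-07. tps-2 measured 145, 145 and 119 CPM in starved larvae, 74.2 and 79.1 CPM at 1 h, 58.5 and 65.1 CPM at 3 h, and 112, 138 and 112 CPM at 6 h. It fell at 1 h (-0.83 ± 0.17, adjusted p = 0.00132) and 3 h (-1.14 ± 0.17, adjusted p = 9.63e-05), and at 6 h its range overlapped that of starved larvae (-0.17 ± 0.15, adjusted p = 0.345). That overlap depends on the TMM factors. As a share of all counts, tps-2 held 0.00983% to 0.01125% at 6 h, below every starved library (0.01239% to 0.01689%). With each gene counted by its highest bin alone, the 1 h call of tps-2 was lost (adjusted p = 0.0554). gob-1 was called at no time, with log2 values of -0.59 ± 0.24 at 1 h, -0.49 ± 0.24 at 3 h and -0.18 ± 0.21 at 6 h. In all, 4 of the 6 counted genes of this group were lower at 1 h and 3 h and 3 at 6 h, when fbp-1 was higher, and the group's median log2 change was -1.097, -1.45 and -0.91 at 1 h, 3 h and 6 h.

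**Figure D3:**
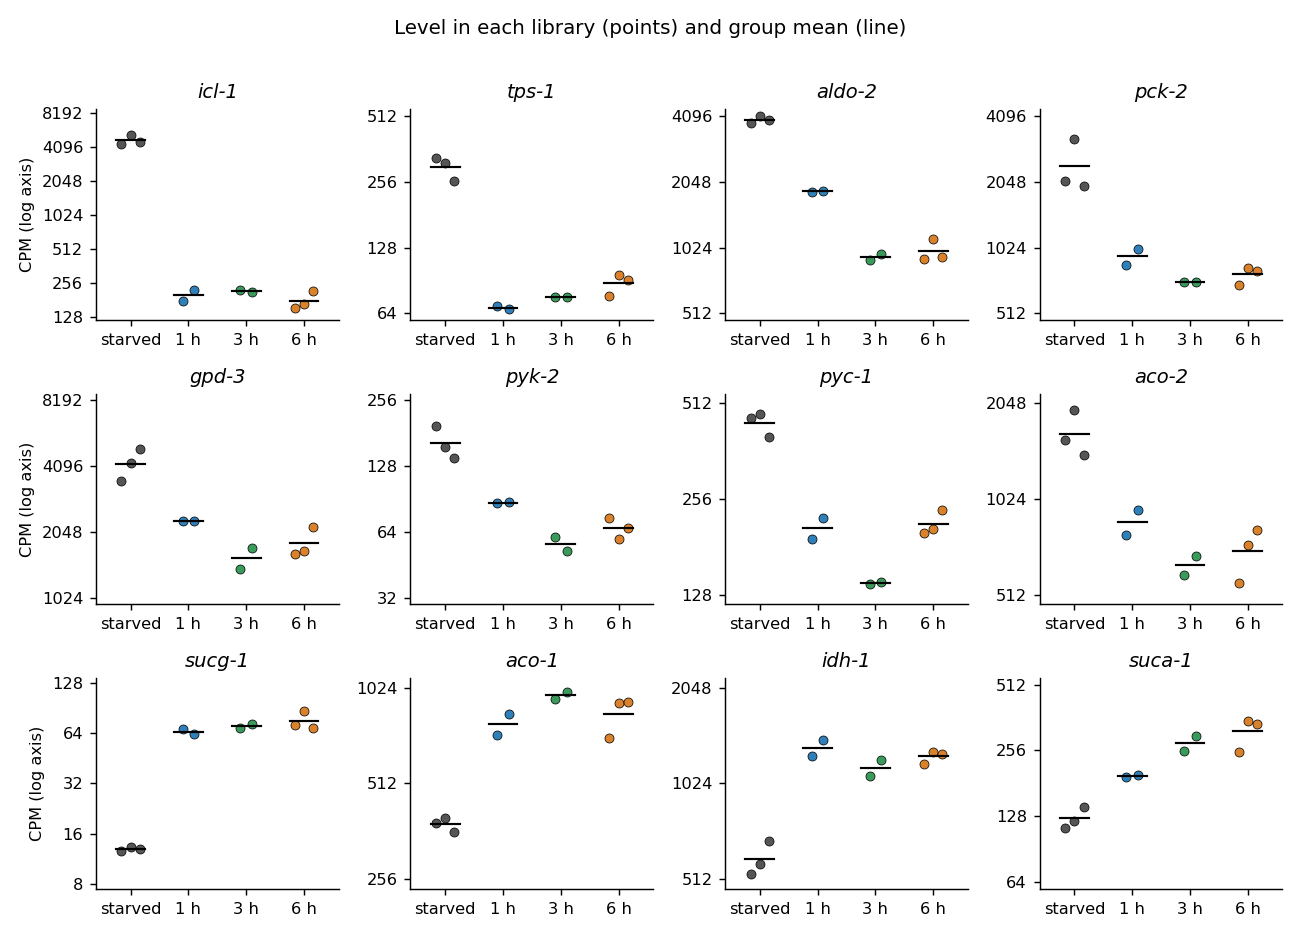
CPM on a log axis in each library (points) with the group mean (line) for 12 enzyme genes with a change of 2-fold or more, in starved larvae and at 1 h, 3 h and 6 h of feeding; each panel has its own range. In the upper 8 panels every fed library lies below the starved ones, and in the lower 4 (sucg-1, aco-1, idh-1 and suca-1) every fed library lies above them.

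In glycolysis, some enzymes with several genes had a copy that fell beside a copy that was called at no time. aldo-2 (F01F1.12, chromosome III, 5874622 to 5876575) is a gene of fructose-bisphosphate aldolase, which splits the sugar into triose phosphates. It had 3798, 4082 and 3924 CPM in starved larvae, 1841 and 1864 CPM at 1 h, 895 and 956 CPM at 3 h, and 904, 1117 and 929 CPM at 6 h. Starved libraries were the highest and those of 1 h came next, with no overlap, while 3 h and 6 h overlapped below them. Against starved larvae the log2 values were -1.09 ± 0.19 at 1 h, -2.09 ± 0.20 at 3 h and -2.001 ± 0.17 at 6 h (adjusted p 0.000448, 1.66e-06 and 3.69e-07). Of its 9 bins 2 overlap F01F1.3 on the other strand. Its copy aldo-1 (T05D4.1) had 399, 387 and 544 CPM in starved larvae, 484 and 496 CPM at 1 h, 411 and 506 CPM at 3 h, and 378, 403 and 517 CPM at 6 h. Its groups overlapped throughout, no test called it, and the log2 values were 0.14 ± 0.21 at 1 h, 0.05 ± 0.21 at 3 h and -0.04 ± 0.19 at 6 h.

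Glyceraldehyde-3-phosphate dehydrogenase, which makes the first NADH of glycolysis, has 4 genes here. gpd-3 (K10B3.7, chromosome X, 3112075 to 3113374) had 3488, 4229 and 4888 CPM in starved larvae, 2305 and 2292 CPM at 1 h, 1383 and 1724 CPM at 3 h, and 1618, 1685 and 2165 CPM at 6 h. Starved libraries were the highest, then those of 1 h, with 3 h and 6 h overlapping below them. Its fall had log2 values of -0.87 ± 0.22 at 1 h, -1.44 ± 0.23 at 3 h and -1.21 ± 0.20 at 6 h (adjusted p 0.00675, 0.000166 and 0.000155). The call at 1 h was lost without replicate 1 or without replicate 2 of the 1 h larvae (adjusted p 0.0549 and 0.0622). gpd-1 (T09F3.3) had 43.5, 68.6 and 54.9 CPM in starved larvae, 38.3 and 43.9 CPM at 1 h, 20.1 and 30.7 CPM at 3 h, and 21.7, 30.5 and 28.9 CPM at 6 h. gpd-4 (F33H1.2) had 42.1, 66.4 and 53.5 CPM in starved larvae, 37.9 and 43.7 CPM at 1 h, 19.9 and 29.2 CPM at 3 h, and 21.5, 29.7 and 29.7 CPM at 6 h. These near-identical copies gave almost the same counts in every library, so their values may share reads and are uncertain, as is gpd-3 beside its neighbour gpd-2 (K10B3.8). Both overlapped the starved range at 1 h (log2 -0.44 ± 0.23 for gpd-1 and -0.40 ± 0.23 for gpd-4, not called) and fell at 3 h (-1.13 ± 0.24 and -1.14 ± 0.24) and 6 h (-1.04 ± 0.21 and -0.9996 ± 0.20), with adjusted p of 0.00151 or less.

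Pyruvate kinase, which closes glycolysis by making pyruvate and ATP, also had a copy that moved and a copy that did not pass the test. pyk-2 (ZK593.1) had 194, 157 and 140.0 CPM in starved larvae, 86.7 and 87.3 CPM at 1 h, 60.5 and 52.2 CPM at 3 h, and 74.2, 59.3 and 66.8 CPM at 6 h. The fed libraries were all below the starved ones, and the log2 values of -0.91 ± 0.18 at 1 h, -1.54 ± 0.18 at 3 h and -1.29 ± 0.16 at 6 h gave adjusted p of 0.00101, 1.25e-05 and 1.09e-05. pyk-1 (F25H5.3) had 382, 396 and 336 CPM in starved larvae, 345 and 390.5 CPM at 1 h, 381 and 402 CPM at 3 h, and 336, 440.3 and 389 CPM at 6 h. Its groups overlapped at all times and its log2 values were -0.01 ± 0.18 at 1 h, 0.07 ± 0.18 at 3 h and 0.06 ± 0.16 at 6 h. Among the hexokinases, which trap glucose in the cell, hxk-3 (Y77E11A.1) fell to 50.2 ± 1.29 CPM at 1 h, 37.7 ± 0.627 CPM at 3 h and 46.2 ± 4.04 CPM at 6 h, against 69.0 ± 3.49 CPM in starved larvae (mean ± SD, n = 2, 2, 3 and 3, edgeR adjusted p 0.0259, 0.000386 and 0.00239). Its 1 h call was lost without either 1 h replicate (adjusted p 0.135 and 0.114), without starved replicate 1 (0.0624), with library totals (0.132) and with the highest bin alone (0.063). hxk-2 (H25P06.1) was not called at any time, with log2 values of -0.51 ± 0.21 at 1 h, -0.16 ± 0.21 at 3 h and -0.06 ± 0.19 at 6 h.

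A further 4 glycolysis genes were called higher at 6 h and at no earlier time. pfk-1.1 (Y71H10A.1) encodes phosphofructokinase, the main control point of the pathway. It had 120.1, 82.0 and 85.1 CPM in starved larvae, 100.1 and 104 CPM at 1 h, 102 and 106 CPM at 3 h, and 126, 182 and 120.5 CPM at 6 h. Replicate 2 at 6 h stood above the others, and the other 6 h libraries were only just above the highest starved one. Its log2 values were 0.09 ± 0.21 at 1 h, 0.12 ± 0.21 at 3 h and 0.58 ± 0.19 at 6 h, with an adjusted p of 0.0188 at 6 h. The triose-phosphate isomerase gene tpi-1 (Y17G7B.7) had 694 ± 178 CPM at 6 h, against 428 ± 72.0 CPM in starved larvae (mean ± SD, n = 3 each, edgeR log2 0.70 ± 0.20, adjusted p = 0.0102). The phosphoglycerate kinase gene pgk-1 (T03F1.3), whose enzyme makes the first ATP of the pathway, had 217 ± 2.41 CPM at 6 h, against 139 ± 14.4 CPM in starved larvae (0.64 ± 0.15, adjusted p = 0.00222). The lactate dehydrogenase gene ldh-1 (F13D12.2) had 234 ± 23.1 CPM at 6 h, against 148 ± 41.2 CPM in starved larvae (0.66 ± 0.19, adjusted p = 0.00781). For all 4 genes, every 6 h library lay above every starved one.

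These calls at 6 h depended on how libraries were scaled. Without replicate 2 of the 6 h larvae the calls of pfk-1.1 (0.36, adjusted p = 0.112) and tpi-1 (0.53, adjusted p = 0.0547) were lost, and that of pfk-1.1 was also lost without starved replicate 2 or 3 (adjusted p 0.0668 and 0.0597) and with the highest bin alone (0.184). Scaled by library totals, all 4 missed the threshold, with log2 values of 0.22 to 0.35 and adjusted p of 0.0961 to 0.339, and with upper-quartile factors 3 of them did (pfk-1.1, tpi-1 and ldh-1, adjusted p 0.0561 to 0.101). Over all 42 enzymes the split at 6 h was 11 higher and 13 lower with TMM factors, 4 and 18 with library totals, and 6 and 14 with upper-quartile factors. For all units it was 3570 higher and 3303 lower with TMM factors, 2345 and 4959 with library totals, and 2814 and 4368 with upper-quartile factors. The median of all units then moved to 0.11 at 1 h, -0.26 at 3 h and -0.37 at 6 h with library totals and to -0.13, -0.16 and -0.24 with upper-quartile factors.

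Of the other glycolysis genes, gpi-1 (Y87G2A.8), for the isomerase that turns glucose-6-phosphate into fructose-6-phosphate, was called lower at 6 h alone (-0.40 ± 0.15, adjusted p = 0.0402). Its 6 h range of 145 to 176 CPM reached the lowest starved library (174.5 CPM), and the call was lost on leaving out any of 6 libraries (both of 3 h, replicates 1 and 3 of 6 h, and starved replicates 1 and 2, adjusted p 0.062 to 0.112) and with the highest bin alone (0.0978). enol-1 (T21B10.2), the enolase gene, was not called, with log2 values of -0.19 ± 0.18 at 1 h, -0.34 ± 0.18 at 3 h and 0.15 ± 0.16 at 6 h. In all, 4, 6 and 7 of the 15 counted glycolysis genes were lower at 1 h, 3 h and 6 h, and 0, 0 and 4 were higher.

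The genes grouped under pyruvate entry and the TCA cycle, which include the cytosolic forms aco-1, idh-1 and mdh-1, moved in both directions. pyc-1 (D2023.2) is the gene of pyruvate carboxylase, which makes oxaloacetate both for the cycle and for gluconeogenesis. It had 459.6, 474 and 399.7 CPM in starved larvae, 191 and 223 CPM at 1 h, 139 and 140.3 CPM at 3 h, and 199.9, 206 and 236 CPM at 6 h. The 3 h libraries were the lowest, and 1 h and 6 h overlapped between them and the starved ones. The log2 values were -1.101 ± 0.17 at 1 h, -1.67 ± 0.18 at 3 h and -1.05 ± 0.15 at 6 h (adjusted p 0.000166, 4.19e-06 and 4.58e-05). pdhb-1 (C04C3.3), for a subunit of the pyruvate dehydrogenase complex, and dld-1 (LLC1.3), for the E3 subunit that this complex shares with others, were called at no time, with log2 values between -0.29 and 0.22.

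In the cycle itself, the citrate synthase gene cts-1 (T20G5.2) fell at 1 h to 1175 ± 90.1 CPM, against 1933 ± 160.2 CPM in starved larvae (-0.72 ± 0.19, adjusted p = 0.00914). It was not called at 3 h (-0.46 ± 0.19) or 6 h (-0.17 ± 0.17). As a share of all counts, not scaled by TMM factors, it lay below every starved library (0.1926% to 0.2201%) at both times. That share was 0.1273% to 0.1313% at 3 h and 0.1344% to 0.1713% at 6 h. The 1 h call was lost without replicate 1 of the 1 h larvae (adjusted p = 0.094) and with the highest bin alone (0.153). aco-2 (F54H12.1, chromosome III, 7973647 to 7977255), the mitochondrial aconitase gene, had 1574, 1951 and 1407 CPM in starved larvae, 788 and 949 CPM at 1 h, 591 and 676 CPM at 3 h, and 559, 737 and 816 CPM at 6 h. All fed libraries were below all starved ones, with log2 values of -0.92 ± 0.22 at 1 h, -1.38 ± 0.23 at 3 h and -1.22 ± 0.20 at 6 h and adjusted p of 0.00459, 0.000224 and 0.000131. The 1 h call was lost without replicate 1 of the 1 h larvae (-0.81, adjusted p = 0.0656). Its cytosolic counterpart aco-1 (ZK455.1, chromosome X, 11339800 to 11343496) had 386, 398 and 360.1 CPM in starved larvae, 727 and 848 CPM at 1 h, 941 and 994 CPM at 3 h, and 709.6, 913 and 923 CPM at 6 h. Here every fed library was above every starved one, and the log2 values of 1.05 ± 0.18 at 1 h, 1.34 ± 0.18 at 3 h and 1.15 ± 0.17 at 6 h gave adjusted p of 0.000405, 4.06e-05 and 5.27e-05.

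Of the isocitrate dehydrogenase genes, a cytosolic one rose and a subunit of the cycle's own enzyme fell. idh-1 (F59B8.2, chromosome IV, 9439064 to 9440784) encodes the cytosolic form, which makes NADPH. It had 532, 570.3 and 673 CPM in starved larvae, 1251 and 1405 CPM at 1 h, 1077 and 1211 CPM at 3 h, and 1182, 1288 and 1265 CPM at 6 h. Each fed library held more than each starved one (log2 1.17 ± 0.18 at 1 h, 0.95 ± 0.18 at 3 h and 1.07 ± 0.17 at 6 h, adjusted p 0.000155, 0.000739 and 9.58e-05). idh-2 (C34F6.8), for the mitochondrial NADP form, had 82.1, 77.4 and 68.1 CPM in starved larvae, 64.3 and 61.5 CPM at 1 h, 60.5 and 57.6 CPM at 3 h, and 76.9, 77.4 and 72.5 CPM at 6 h. It was called at no time, with log2 values of -0.27 ± 0.15 at 1 h, -0.36 ± 0.15 at 3 h and -0.01 ± 0.13 at 6 h. idha-1 (F43G9.1) encodes the alpha subunit of the NAD enzyme of the cycle. It had 689, 753 and 745 CPM in starved larvae, 363 and 399.9 CPM at 1 h, 400.4 and 475 CPM at 3 h, and 408, 470.0 and 632 CPM at 6 h. Starved libraries were all above fed ones, and the gene fell at each time (-0.93 ± 0.21 at 1 h, -0.74 ± 0.21 at 3 h and -0.53 ± 0.18 at 6 h, adjusted p 0.00263, 0.0106 and 0.0235).

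The call of idha-1 at 3 h was lost without replicate 1 of the 3 h larvae (adjusted p = 0.128), and that at 6 h without replicate 1 or 2 of the 6 h larvae (0.0987 and 0.0733). idhg-1 (F35G12.2), for the gamma subunit, was called higher at 6 h, with 228 ± 32.4 CPM, against 159 ± 22.5 CPM in starved larvae (0.52 ± 0.16, adjusted p = 0.0136). That call was lost without replicate 2 of the 6 h larvae (adjusted p = 0.0632), with library totals (0.397) and with upper-quartile factors (0.0986). idhb-1 (C37E2.1), for the beta subunit, was called against starved larvae at no time (log2 -0.46 ± 0.19 at 1 h, -0.16 ± 0.19 at 3 h and 0.18 ± 0.17 at 6 h). idh-2, idha-1, idhg-1, cts-1 and fum-1 each have 1 or 2 bins that overlap a unit on the other strand.

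Succinyl-CoA ligase, which makes a nucleoside triphosphate directly within the cycle, held the set's largest rise. sucg-1 (C50F7.4, chromosome IV, 7728894 to 7730686) encodes the beta subunit of the form that makes GTP. It had 12.53, 13.4 and 12.97 CPM in starved larvae, 67.6 and 63.1 CPM at 1 h, 68.5 and 72.6 CPM at 3 h, and 71.7, 86.7 and 69.1 CPM at 6 h. All fed libraries lay far above all starved ones, while the 3 h and 6 h ranges overlapped just above that of 1 h. The gene rose 5.04-fold at 1 h, 5.43-fold at 3 h and 5.84-fold at 6 h. The log2 values were 2.33 ± 0.16 at 1 h, 2.44 ± 0.16 at 3 h and 2.55 ± 0.15 at 6 h, with adjusted p of 7.55e-08, 4.28e-08 and 1.01e-08. Of its 6 bins 1 overlaps C50F7.9 on the other strand. suca-1 (F47B10.1) encodes the beta subunit of the form that makes ATP. It had 114, 122 and 141 CPM in starved larvae, 193 and 197 CPM at 1 h, 254 and 298 CPM at 3 h, and 253, 348 and 339 CPM at 6 h. Its libraries were higher at each fed time than in starved larvae, and those of 1 h were below those of 3 h and 6 h. The rise was 0.64 ± 0.18 at 1 h, 1.14 ± 0.18 at 3 h and 1.32 ± 0.17 at 6 h (adjusted p 0.0124, 0.000161 and 1.44e-05). At 1 h the call was lost without replicate 1 or 2 of the 1 h larvae (adjusted p 0.0749 and 0.0812) and with the highest bin alone (0.122).

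ogdh-1 (T22B11.5) and dlst-1 (W02F12.5), for subunits of the 2-oxoglutarate dehydrogenase complex, and the fumarase gene fum-1 (H14A12.2) were called at no time, with log2 values between -0.53 (fum-1 at 1 h) and 0.29 (dlst-1 at 6 h). For succinate dehydrogenase, which also feeds electrons to the respiratory chain, sdha-1 (C03G5.1) had 368, 465 and 447 CPM in starved larvae, 344 and 341 CPM at 1 h, 373 and 432 CPM at 3 h, and 401, 516 and 591 CPM at 6 h. It was not called, the 1 h libraries lay below the starved ones, and the ranges at 3 h and 6 h overlapped the starved range. Its copy sdha-2 (C34B2.7) had 6.13, 5.72 and 6.61 CPM in starved larvae, 8.47 and 8.88 CPM at 1 h, 6.12 and 7.63 CPM at 3 h, and 5.93, 13.1 and 12.4 CPM at 6 h. It was called higher at 6 h (0.77 ± 0.27, adjusted p = 0.0261), although replicate 1 at 6 h lay within the starved range.

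The call of sdha-2 was lost with library totals (adjusted p = 0.182), with upper-quartile factors (0.0923), in the 8 libraries with barcodes 1 to 8, which leave out replicate 3 of both groups (0.107), and without 6 h replicate 2 or 3 or starved replicate 1 or 2 (0.0584 to 0.121). sdhb-1 (F42A8.2), for the iron-sulfur subunit, was called lower at 1 h (-0.59 ± 0.21, adjusted p = 0.0419) and 3 h (-0.57 ± 0.21, adjusted p = 0.0445), and both calls were lost on leaving out any of 7 libraries (adjusted p 0.0501 to 0.333). Malate dehydrogenase closes the cycle. The cytosolic gene mdh-1 (F46E10.10) had 544, 576 and 662 CPM in starved larvae, 452 and 488 CPM at 1 h, 302 and 326 CPM at 3 h, and 518, 529.6 and 588 CPM at 6 h. The 3 h libraries were the lowest, and the fall was called at 3 h alone (-0.92 ± 0.18, adjusted p = 0.000792, or 0.0609 with the highest bin alone). As a share of all counts, not scaled by TMM factors, mdh-1 at 6 h (0.04307% to 0.0515%) also lay below every starved library (0.06155% to 0.06901%). The mitochondrial gene mdh-2 (F20H11.3) had 849, 944 and 1040.1 CPM in starved larvae, 897 and 931 CPM at 1 h, 1103 and 1291 CPM at 3 h, and 1089, 1143 and 1583 CPM at 6 h. It was called at no time, with log2 values of -0.05 ± 0.21 at 1 h, 0.34 ± 0.21 at 3 h and 0.43 ± 0.19 at 6 h. In this group of 21 genes, cytosolic forms included, 4 rose and 5 fell at 1 h and again at 3 h, and 6 rose and 3 fell at 6 h. The group's median log2 change was -0.27, 0.03 and 0.22 at 1 h, 3 h and 6 h.

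The fed times were also set against each other. At 3 h over 1 h 1 of 42 was called lower, aldo-2, and 0 higher, beside 4.6% of all units lower and 4.79% higher. Its log2 value at 3 h over 1 h was -1.001 ± 0.21 (adjusted p = 0.00767). The call was lost on leaving out any library of either time (adjusted p 0.0597 to 0.091). Scaled by library totals, 13 enzymes were called lower and 0 higher in that comparison, with the median of all units at -0.37. With DESeq2 4 were called lower, and 4 in the libraries with barcodes 1 to 8. At 6 h over 3 h 2 were called higher, tps-2 (0.97 ± 0.17, adjusted p = 0.00535) and mdh-1 (0.80 ± 0.18, adjusted p = 0.0256), and 0 lower, beside 2.1% of all units higher and 0.665% lower. With DESeq2 5 were called higher. The tps-2 call was lost without replicate 1 or 2 of the 3 h larvae (adjusted p 0.144 and 0.0692). That of mdh-1 was lost without either library of 1 h or 3 h, without replicate 3 of 6 h and with the highest bin alone (0.059 to 0.332).

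At 6 h over 1 h 5 enzymes were called, beside 24.6% of all units, and 4 of them were higher, beside 13.3% of all units. The 4 were pgk-1 (0.82 ± 0.17), suca-1 (0.69 ± 0.19), tps-2 (0.66 ± 0.17) and idhb-1 (0.64 ± 0.19), with adjusted p between 0.00311 and 0.0253, and aldo-2 was lower (-0.91 ± 0.18, adjusted p = 0.00259). Library totals gave 0 higher and 12 lower in that comparison, with the median of all units at -0.46, upper-quartile factors gave 4 and 4, and DESeq2 gave 8 and 1. Of the calls, tps-2, suca-1 and idhb-1 were lost without replicate 1 or 2 of the 1 h larvae (adjusted p 0.0776 to 0.196), idhb-1 also without replicate 2 or 3 of the 6 h larvae (0.0681 and 0.0714), and pgk-1 without replicate 2 of the 1 h larvae (0.0505).

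**Figure D4:**
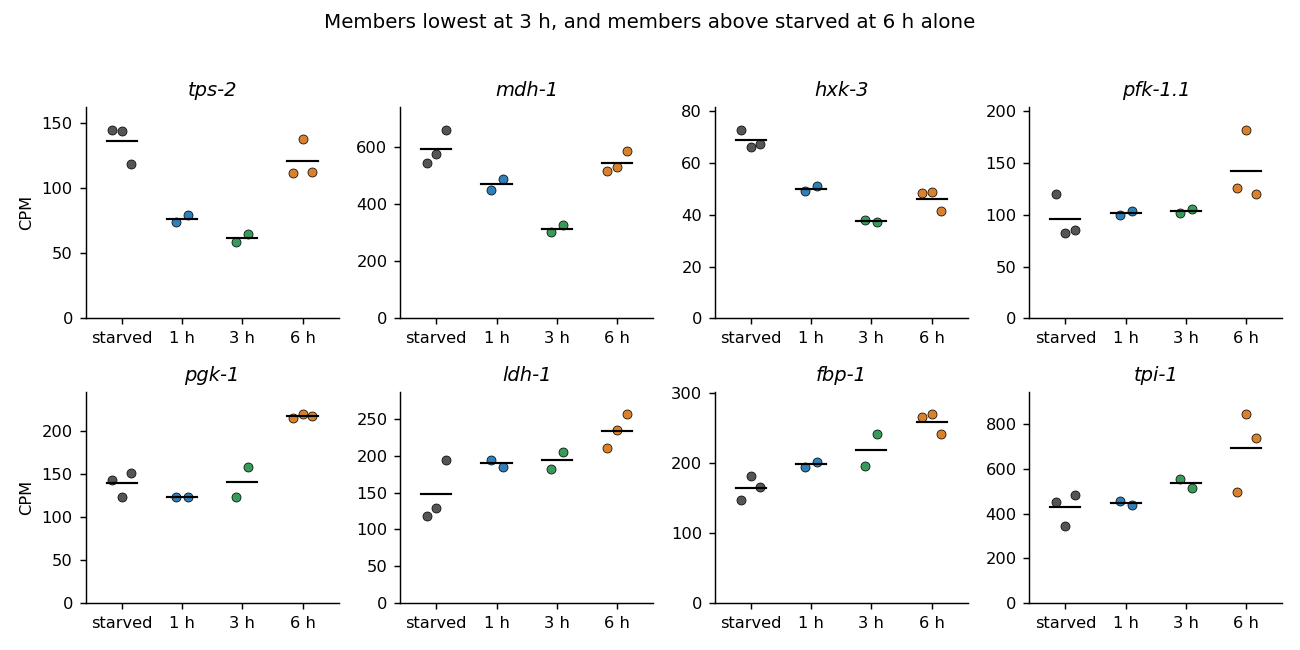
CPM from 0 on a linear axis in each library (points) with the group mean (line) for 8 enzyme genes in starved larvae and at 1 h, 3 h and 6 h of feeding. The genes tps-2, mdh-1 and hxk-3 are lowest at 3 h, and pfk-1.1, pgk-1, ldh-1, fbp-1 and tpi-1 are highest at 6 h, where pgk-1 lies at 214 to 219 CPM.

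Ratios of 2 genes within each library do not depend on how libraries are scaled against each other. For 12 pairs with counts, 8 of the same enzyme and 4 of opposed or competing steps, the log2 ratio was compared over the 4 groups with an exact permutation test of the F statistic (25200 assignments, smallest possible p 0.000159), adjusted over the 12 pairs. The ratios are of counts not scaled by length, so that their change, not their height, is what can be read. Each p is of all 4 groups together, and no fed time was tested alone. The test gave an adjusted p under 0.05 for 6 of the 8 pairs of the same enzyme and 2 of the 4 opposed pairs.

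The cytosolic aconitase gene gained on the mitochondrial one. The log2 ratio aco-1/aco-2 was -2.03, -2.29 and -1.97 in starved larvae, -0.12 and -0.16 after 1 h, 0.67 and 0.56 after 3 h, and 0.34, 0.31 and 0.18 after 6 h. No group overlapped another, and the change against starved larvae was 1.96 at 1 h, 2.71 at 3 h and 2.37 at 6 h (exact p = 0.000159, adjusted p = 0.000952). That p is the smallest the permutations can give. For idh-1/idh-2 the ratio was 2.695, 2.88 and 3.304 in starved larvae, 4.28 and 4.51 after 1 h, 4.15 and 4.39 after 3 h, and 3.94, 4.05 and 4.12 after 6 h. All fed libraries were higher, by 1.44 at 1 h, 1.31 at 3 h and 1.08 at 6 h (exact p = 0.00238, adjusted p = 0.00408). For aldo-1/aldo-2 it was -3.25, -3.398 and -2.85 in starved larvae, -1.93 and -1.91 after 1 h, -1.121 and -0.92 after 3 h, and -1.26, -1.47 and -0.85 after 6 h. The change was 1.25 at 1 h, 2.15 at 3 h and 1.97 at 6 h (exact p = 0.000952, adjusted p = 0.0019). The ratio pyk-1/pyk-2 changed in the same direction, by 0.89 at 1 h, 1.61 at 3 h and 1.34 at 6 h (exact p = 0.00286, adjusted p = 0.00429).

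For trehalose synthesis the ratio tps-1/tps-2 was 1.18, 1.099 and 1.11 in starved larvae, -0.10 and -0.24 after 1 h, 0.38 and 0.23 after 3 h, and -0.54, -0.52 and -0.31 after 6 h. It was highest in starved larvae and lowest at 6 h, with changes of -1.301 at 1 h, -0.83 at 3 h and -1.59 at 6 h (exact p = 0.000317, adjusted p = 0.000952). The ratio mdh-1/mdh-2 was -0.64, -0.71 and -0.65 in starved larvae, -0.99 and -0.93 after 1 h, -1.87 and -1.98 after 3 h, and -1.07, -1.11 and -1.43 after 6 h. The 3 h libraries were the lowest, with a change of -1.26 at 3 h (over all groups, exact p = 0.000317, adjusted p = 0.000952). With the highest bin alone that change was -0.73, and the permutation test over all groups gave an adjusted p of 0.277. Both remaining pairs of the same enzyme gave no call. sdha-1/sdha-2 had changes of -0.80 at 1 h, -0.23 at 3 h and -0.45 at 6 h (exact p = 0.0767, adjusted p = 0.102, but adjusted p = 0.0138 without replicate 1 of the 6 h larvae). gpd-1/gpd-4 stayed between -0.04 and 0.07 in every library (exact p = 0.36, adjusted p = 0.432). As these near-identical copies may share reads, this ratio cannot show whether the genes differ.

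Isocitrate is the substrate that the TCA cycle and the glyoxylate cycle share. The ratio idha-1/icl-1 was -2.65, -2.78 and -2.59 in starved larvae, 1.05 and 0.87 after 1 h, 0.85 and 1.16 after 3 h, and 1.43, 1.51 and 1.56 after 6 h. Every fed library was above every starved one, with changes of 3.64 at 1 h, 3.68 at 3 h and 4.17 at 6 h (exact p = 0.000635, adjusted p = 0.00152). For pyk-1/pck-2, which set the last step of glycolysis against its bypass in gluconeogenesis, the ratio rose by 1.32 at 1 h, 1.80 at 3 h and 1.66 at 6 h (exact p = 0.000317, adjusted p = 0.000952). With the other pyruvate kinase gene, which fell together with pck-2, the ratio pyk-2/pck-2 changed by 0.43 at 1 h, 0.19 at 3 h and 0.32 at 6 h and was not called (exact p = 0.555, adjusted p = 0.606). The opposed pair pfk-1.1/fbp-1 was not called either, with changes of -0.15 at 1 h, -0.26 at 3 h and -0.08 at 6 h (exact p = 0.904, adjusted p = 0.904). Its libraries ran from -1.19 to -0.29 and overlapped in all groups.

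**Figure D5:**
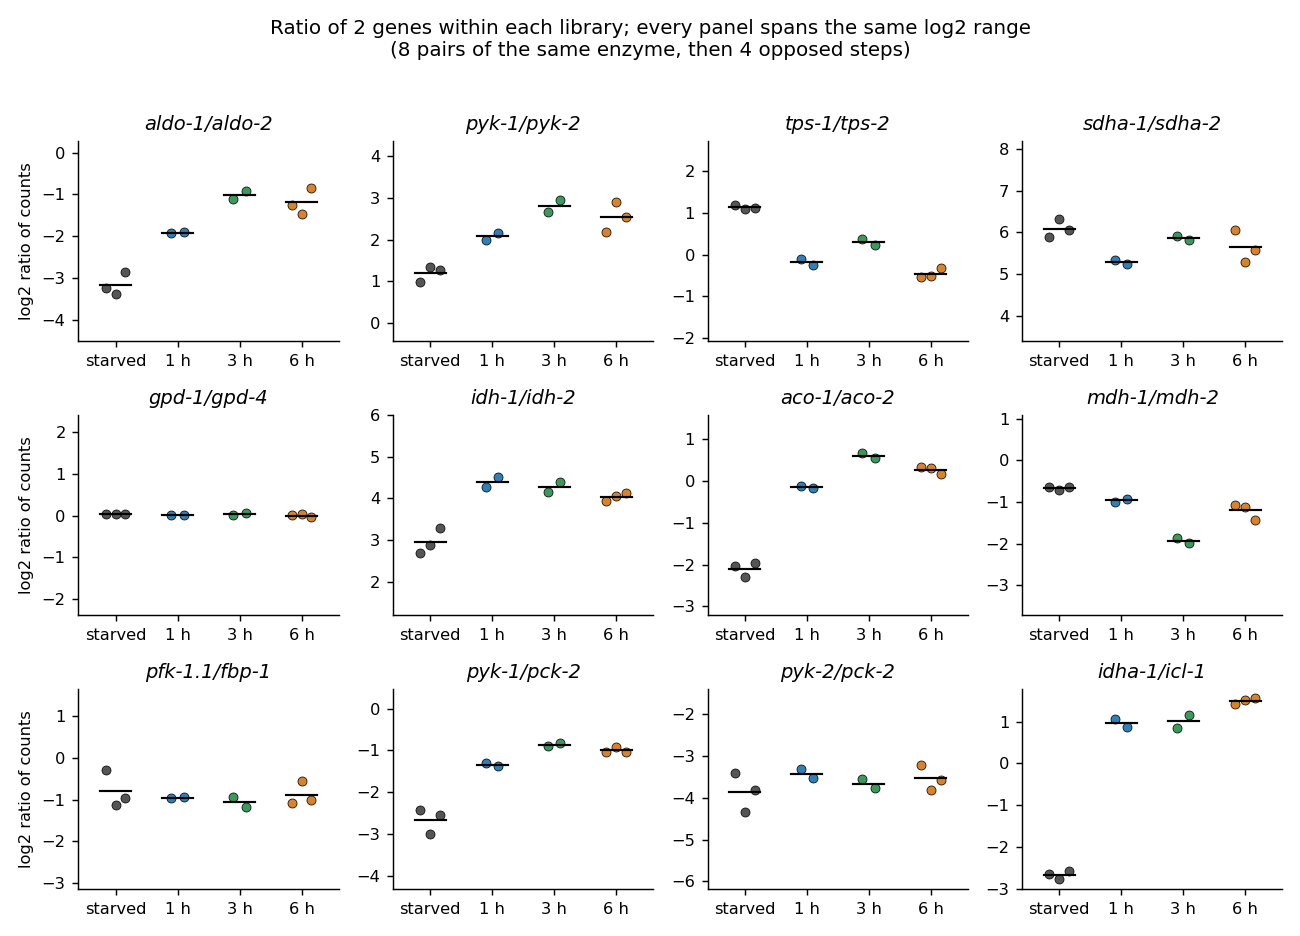
Log2 ratio of the counts of 2 genes in each library (points) with the group mean (line), for 8 pairs of the same enzyme and 4 opposed pairs, in starved larvae and at 1 h, 3 h and 6 h of feeding; all panels span the same range. The fed libraries stand apart from the starved ones in aco-1/aco-2 and idha-1/icl-1, and gpd-1/gpd-4 stays near 0 throughout.

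Levels can be set between genes by the authors' FPKM, which are per length and give a single pooled value per time point with the authors' lower and upper bounds. They are scaled otherwise than the CPM above. The median over the 47 listed genes was 183 FPKM in starved larvae, 165 FPKM at 1 h, 145 FPKM at 3 h and 175 FPKM at 6 h. The highest in starved larvae was gpd-3, at 4937 FPKM in starved larvae, 2728 FPKM at 1 h, 1458 FPKM at 3 h and 1657 FPKM at 6 h, with gpd-2 beside it at 4719 FPKM in starved larvae, 2682 FPKM at 1 h, 1465 FPKM at 3 h and 1678 FPKM at 6 h. aldo-2 came next in starved larvae, at 4128 FPKM in starved larvae, 2103 FPKM at 1 h, 743 FPKM at 3 h and 808 FPKM at 6 h. The bounds in starved larvae were wide (0 to 10219 FPKM for gpd-3, 0 to 9921 FPKM for gpd-2 and 763 to 7493 FPKM for aldo-2 in the authors' deposited table), so these 3 genes have no firm order there.

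By FPKM, icl-1 ranked 4 of the 47 in starved larvae and 31 or lower at the fed times, at 1889 FPKM in starved larvae, 79.3 FPKM at 1 h, 67.2 FPKM at 3 h and 54.1 FPKM at 6 h. Its bounds in starved larvae, 0 to 4235 FPKM in the authors' deposited table, leave that rank uncertain. idh-1 went the other way, ranking 15 in starved larvae and 4 at 1 h, at 476 FPKM in starved larvae, 1227 FPKM at 1 h, 729 FPKM at 3 h and 804 FPKM at 6 h. cts-1 stayed among the highest at each time, at 1646 FPKM in starved larvae, 1119 FPKM at 1 h, 983 FPKM at 3 h and 1183 FPKM at 6 h. Although sucg-1 had the largest rise, its level stayed modest, at 11.6 FPKM in starved larvae, 55.6 FPKM at 1 h, 47.6 FPKM at 3 h and 49.8 FPKM at 6 h, below that of suca-1, at 91.8 FPKM in starved larvae, 156 FPKM at 1 h, 162 FPKM at 3 h and 191 FPKM at 6 h.

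Set per length, the copies that fell were not always the minor ones. The aldolase gene aldo-2 was above aldo-1 at every time, since aldo-1 had 495 FPKM in starved larvae, 591 FPKM at 1 h, 421 FPKM at 3 h and 384 FPKM at 6 h. Of the pyruvate kinases the copy that fell, pyk-2, was the lower one, with 113 FPKM in starved larvae, 62.6 FPKM at 1 h, 29.98 FPKM at 3 h and 34.9 FPKM at 6 h. pyk-1 had 234 FPKM in starved larvae, 237 FPKM at 1 h, 197 FPKM at 3 h and 193 FPKM at 6 h. For the aconitases, aco-1 had 183 FPKM in starved larvae, 367 FPKM at 1 h, 339 FPKM at 3 h and 299 FPKM at 6 h. aco-2 had 1052 FPKM in starved larvae, 470.1 FPKM at 1 h, 277 FPKM at 3 h and 300.4 FPKM at 6 h. In the authors' deposited table the bounds of the aconitases overlapped at every fed time (at 3 h 271 to 407 FPKM for aco-1 and 247.5 to 307 FPKM for aco-2), and in starved larvae aco-2 lay above aco-1. Those of the pyruvate kinases overlapped in starved larvae, and those of the aldolases at no time.

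Among the remaining pairs, the trehalose synthase gene tps-1 stood above tps-2 in starved larvae and below it at the fed times by the values alone. tps-1 had 65.6 FPKM in starved larvae, 14.98 FPKM at 1 h, 13.4 FPKM at 3 h and 14.9 FPKM at 6 h. tps-2 had 45.1 FPKM in starved larvae, 23.9 FPKM at 1 h, 15.1 FPKM at 3 h and 28.5 FPKM at 6 h. Their bounds in the authors' deposited table overlapped in starved larvae and at 3 h. The mitochondrial idh-2 stayed far below idh-1, at 74.8 FPKM in starved larvae, 59.7 FPKM at 1 h, 53.1 FPKM at 3 h and 53.2 FPKM at 6 h. sdha-2 was near the bottom of the set, at 3.96 FPKM in starved larvae, 5.15 FPKM at 1 h, 3.13 FPKM at 3 h and 4.94 FPKM at 6 h. sdha-1 had 225 FPKM in starved larvae, 165 FPKM at 1 h, 145 FPKM at 3 h and 175 FPKM at 6 h. The sugar-making fbp-1 was above the sugar-breaking pfk-1.1 at each time, at 205 FPKM in starved larvae, 209 FPKM at 1 h, 207 FPKM at 3 h and 230.2 FPKM at 6 h. pfk-1.1 had 46.3 FPKM in starved larvae, 53.8 FPKM at 1 h, 41.7 FPKM at 3 h and 55.7 FPKM at 6 h.

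The 5 genes without counts of their own were read from FPKM alone and were not tested. hxk-1 (F14B4.2), a hexokinase gene, was listed at 51.8 FPKM in starved larvae, 54.02 FPKM at 1 h, 21.99 FPKM at 3 h and 16.6 FPKM at 6 h. ipgm-1 (F57B10.3), the cofactor-independent phosphoglycerate mutase gene, was listed at 279 FPKM in starved larvae, 213 FPKM at 1 h, 122 FPKM at 3 h and 144 FPKM at 6 h. The authors' table marks the estimates of these 2 genes as failed, so their values are uncertain. pdha-1 (T05H10.6), for the E1 alpha subunit of pyruvate dehydrogenase, had 488 FPKM in starved larvae, 318 FPKM at 1 h, 258 FPKM at 3 h and 280.5 FPKM at 6 h. pfk-1.2 (C50F4.2), the other phosphofructokinase gene, had 0.282 FPKM in starved larvae, 0.0556 FPKM at 1 h, 0.0377 FPKM at 3 h and 0.132 FPKM at 6 h, the lowest of the 47 at all times. gpd-2 and pdha-1 are merged with a neighbouring gene in the counts.

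For no enzyme was a shift of reads among the bins of its gene model called. With diffSpliceDGE of edgeR and Simes p-values over 11772 genes, 0 of the 42 passed at 1 h against starved (0.374% of all genes), 0 at 3 h (0.195%) and 0 at 6 h (0.552%). An unadjusted p under 0.05 was found for 2 at 1 h (gpi-1 and gpd-3), 1 at 3 h (mdh-1) and 2 at 6 h (icl-1 and idhg-1). The lowest adjusted p was 0.896 at 1 h and 0.456 at 6 h. Without starved replicate 1 gpd-3 was called at 1 h, without starved replicate 2 idhg-1 at 6 h, and in the libraries with barcodes 1 to 8 sdha-1 at 6 h. By the authors' pooled isoform FPKM, transcript C05E4.9b held 93.5% of icl-1 FPKM in starved larvae, then 94.7% at 1 h, 90.8% at 3 h and 95.99% at 6 h.

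Of 29 further genes listed for the same and neighbouring pathways (pentose phosphate, glycogen and trehalose breakdown among them), 24 had counts. At 1 h 6 were higher and 10 lower, beside 20.4% and 18.7% of all units. At 3 h 7 were higher and 9 lower, beside 21.9% and 19.7%, and at 6 h 7 were higher and 7 lower, beside 27% and 25%. None changed 4-fold. Their median log2 change was -0.25, -0.22 and 0.07.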

How the data were processed

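mRNA-seq libraries of 10 L1 larval samples were analysed from counts and FPKM. Per the deposited notes, the authors counted reads with the counting script of the DEXSeq package, giving whole-number counts per exonic bin of WS210 gene models. Reads were counted again after removal of a 22 bp spliced leader, per the labels. Bowtie 0.12.7 and TopHat are named in the submitters' processing notes. The sources used here do not give the strand setting of the counting. Per the deposited notes, the authors' FPKM came from cuffdiff (Cufflinks 1.0.2), 1 pooled value per time point. Reads outside the bins (8.35% to 11.4% per library) were left out.

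Counts were summed over bins per unit (13374 units, 257 of them merged genes) and tested with edgeR 4.0.16 in R 4.3.3 (TMM factors, filterByExpr, robust quasi-likelihood fit of the 4 groups in all 10 libraries, 6 residual degrees of freedom), with Benjamini-Hochberg adjusted p-values over 13226 units. Ratios used a prior count of 2. Alternatives were 3 other scalings, no filter, DESeq2 1.42.0, the highest bin alone, barcodes 1 to 8 alone, a barcode range term, a prior count of 0.5, bins with a mean count of 20 or more, and each library left out. Tested on simulated data for 1 h against starved over 13226 units, the gene test recovered 61 of 100 2-fold and 94 of 100 4-fold changes and called 10 unchanged units. The simulation changed 200 units, where 39% of all units were called in the data. These recovered shares thus do not carry over to the real comparison. The series calls the libraries biological replicates, but no label names separate cultures, so p-values measure only how these libraries vary, and that spread may be technical. Symbols came from RefSeq for 47 of the 48 genes. Values in each library are given for genes called with a change of 2-fold or more and for both genes of each ratio, and pooled FPKM for genes without counts. The enzymes, lists and ratios were chosen with earlier results of these data known.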

Additional observations from a re-analysis of the deposited data

How the results depend on the processing

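Of 68 calls of single enzymes over the 6 comparisons, 42 were kept under every alternative run and 47 with any library left out, and no called enzyme changed direction. The uncalled ratio pyk-2/pck-2 at 1 h against starved turned to -0.00594 with the highest bin alone, and the cause was not tested. Against starved larvae, the number of enzymes called in either direction moved by over 1.5 times only on leaving out libraries at 1 h, where it ran from 11 to 19 of 42 (3307 to 5324 of all units). Those higher at 6 h were 11 as reported, 4 with library totals and 6 with upper-quartile factors. Among the fed times counts were small and less stable. At 3 h against 1 h, library totals gave 13 enzymes and 1953 units (1 and 1241 as reported), barcodes 1 to 8 gave 4 enzymes, DESeq2 4, and the highest bin alone 3 and 633 units. At 6 h against 3 h, DESeq2 gave 5 enzymes and 682 units (2 and 366 as reported), and the highest bin alone 1 and 161 units. At 6 h against 1 h, library totals gave 12 enzymes and 5014 units (5 and 3249 as reported), upper-quartile factors 8 enzymes, DESeq2 9, and the highest bin alone 1834 units. With any library left out, these ran from 0 to 2 enzymes (302 to 1466 units) at 3 h against 1 h, from 0 to 3 (120.0 to 450.0 units) at 6 h against 3 h, and from 1 to 9 (1302 to 3586 units) at 6 h against 1 h. The cause was not tested, and fits with a library left out hold fewer samples. For all units at 3 h against starved the split was 2896 higher and 2605 lower, and with library totals 2014 and 3570. At 6 h against 3 h it was 278 and 88, and with library totals 198 and 116. Bin use was called for 1 enzyme at 6 h with barcodes 1 to 8, for 0 to 1 with a library left out at 1 h and 6 h, and for 0 at 3 h. Ratios of the same enzyme were called for 5 to 7 of 8 pairs and opposed ones for 2 of 4 under the alternatives run.

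Replicate numbers coincide with barcode ranges (1 to 4, 5 to 8 and 13 to 16), and no label says what they share. Deviations from the group mean correlated at 0.0766 to 0.330 for libraries with the same number, against -0.330 to 0.128 for libraries with different numbers. In a group of 2 libraries these deviations mirror each other, so the contrast between the 2 ranges was partly fixed in advance. As not all correlations of same-numbered libraries were over 0.1, the main tests did not pair samples by number. Whether same-numbered libraries share a source was not tested. With the replicate block, 19, 22 and 25 enzymes were called at 1 h, 3 h and 6 h against starved. Among the fed times the block gave 6 enzymes at 3 h against 1 h, 2 enzymes and 565 units at 6 h against 3 h, and 9 enzymes at 6 h against 1 h.

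On simulated data for 1 h against starved, with 200 changed units, the test recovered 61 of 100 2-fold changes. In the data 39% of all units were called at 1 h, so that share does not carry over. Changes of 2-fold and smaller can still be missed. Genes with few counts, such as sdha-2, and near-identical copies, such as gpd-1 and gpd-4, carry the least certain values. Counting intervals were not given, since PCR copies are not independent molecules.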

Other observations

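Neighbouring pathways, whose genes are named here after their values were seen, held further changes by edgeR's quasi-likelihood test. The list of further genes held 4 of the pentose phosphate pathway, which makes NADPH and ribose. All 4 were called higher at 1 h, where 20.4% of all units were. Other genes of that pathway were not looked up. gspd-1 (B0035.5), for glucose-6-phosphate dehydrogenase at its entry, averaged 189 CPM at 1 h, 107 CPM at 3 h and 94.5 CPM at 6 h, against 69.8 CPM in starved larvae, with log2 changes of 1.44, 0.62 and 0.44 and adjusted p of 1.09e-05, 0.00895 and 0.0264. T25B9.9, for 6-phosphogluconate dehydrogenase, changed by 0.78, 1.11 and 0.61 (adjusted p of 0.00526 or less), and the transaldolase gene tald-1 (Y24D9A.8) by 0.55, 1.08 and 0.83 (adjusted p of 0.0162 or less). The transketolase gene tkt-1 (F01G10.1) was called at 1 h alone (0.58, adjusted p = 0.0427).

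Of the 4 listed glycogen genes with counts 3 fell at 1 h and 3 h, where 18.7% and 19.7% of all units fell. gsy-1 (Y46G5A.31), for glycogen synthase, averaged 34.1 CPM at 1 h, 57.8 CPM at 3 h and 76.0 CPM at 6 h, against 101.8 CPM in starved larvae, with log2 changes of -1.58, -0.82 and -0.42 and adjusted p of 4.94e-06, 0.00102 and 0.0224. agl-1 (R06A4.8), for the debranching enzyme, changed by -1.26, -1.12 and -0.64 (adjusted p of 0.00699 or less). pygl-1 (T22F3.3), for glycogen phosphorylase, which releases glucose from the chain, was lower at 1 h (-0.81, adjusted p = 0.00162) and 3 h (-0.44, adjusted p = 0.0453) and not at 6 h (0.07). Of the 4 counted trehalase genes, tre-1 (F57B10.7) and tre-2 (T05A12.2), for enzymes that split trehalose, were lower at all 3 times, by -0.47 to -0.63 and by -0.72 to -1.03. tre-4 (F15A2.2) was lower at 1 h alone (-1.27, adjusted p = 0.0003), and tre-5 (C23H3.7) was higher at 1 h (1.01, adjusted p = 0.0185) and 3 h (0.93, adjusted p = 0.0278).

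In the TCA cycle, sucl-2 (F23H11.3), for an alpha subunit of succinyl-CoA ligase, was higher at every fed time (1.698, 1.06 and 0.88), and sucl-1 (C05G5.4), for the other, at 3 h and 6 h (0.57 and 0.74). idhg-2 (C30F12.7), for a further gamma subunit of the NAD isocitrate dehydrogenase, averaged 32.5 CPM at 1 h, 33.1 CPM at 3 h and 51.0 CPM at 6 h, against 107.9 CPM in starved larvae (log2 -1.73, -1.71 and -1.08). acs-19 (C36A4.9), for an acetyl-CoA synthetase, was lower at 3 h (-0.83) and 6 h (-1.63) and was not called at 1 h (-0.24). The differences between these genes' courses were not tested.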
